A study of Mus musculus with 12 samples.

Results

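RNA from injured mouse spinal cord that had received mesenchymal stem cells of either kind was compared with RNA from injured cord without a transplant. The comparison took in 9 of the 12 libraries of the series, chosen by the submitters' labels and by no measured value. A first group of 3 came from cords with spinal cord injury (SCI) and syngeneic mesenchymal stem cells (MSC), that is, cells from a genetically matched donor. A second group of 3 came from cords with SCI and allogeneic MSC, from an unmatched donor. The 3 libraries of SCI alone were the comparison group, and 3 libraries of non-injured cord gave a level without injury. MSC are multipotent stromal cells that can be grown from bone marrow and other tissues. The host strain of all groups was C57BL6/cJ, and no transgene or other treatment is named. The sources used here do not give the donor strain, the number and route of the cells, the hosts' sex and age, the interval from injury to collection or the hour of collection. Nor do they say whether the SCI group received a vehicle. Whether the 3 samples of a group were separate animals is not stated either, and p-values therefore reflect sample-to-sample spread that may be technical.

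Of the 5 genes that differed between transplanted and SCI cord, 3 belong to the circadian clock and 1 is an immediate early gene. The clock is a loop of transcription that runs in nearly every cell. Arntl, which codes for BMAL1, pairs with Clock or Npas2 and switches on the Per and Cry genes, Nr1d1, Nr1d2, Ciart and Dbp through E-boxes. The Per and Cry proteins then hold back that pair, and the proteins of Nr1d1 and Nr1d2 repress Arntl and Npas2 in turn, so that Arntl and Dbp peak at opposite times of day. Immediate early genes such as Fos, Egr1 and Nr4a1 are transcribed within minutes of a stimulus without new protein being made. In the cord they follow neuronal firing, growth factors, stress and damage.

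The sequences before the starts of 3 clock genes are shown because they differ in the elements they hold. The windows are from the RefSeq promoter table of build GRCm38.p6, written 5′ to 3′ on the gene's strand and ending before the gene's start. That of Ciart is printed only up to the earliest annotated start of the gene. They lie at chr7:113207215-113207464 (plus strand) for Arntl, chr3:95882252-95882478 (minus strand) for Ciart and chr4:151044666-151044915 (minus strand) for Per3. Capitals mark an E-box (CACGTG) in Ciart, bound by the Arntl and Clock pair, and a D-box (TTANGTAA) in Per3, bound by Dbp, Tef and Hlf.
Arntl: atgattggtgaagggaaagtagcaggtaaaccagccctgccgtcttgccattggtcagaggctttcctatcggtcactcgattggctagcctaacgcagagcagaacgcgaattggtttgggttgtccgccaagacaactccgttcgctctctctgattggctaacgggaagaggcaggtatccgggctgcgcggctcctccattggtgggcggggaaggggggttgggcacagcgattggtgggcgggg
Ciart: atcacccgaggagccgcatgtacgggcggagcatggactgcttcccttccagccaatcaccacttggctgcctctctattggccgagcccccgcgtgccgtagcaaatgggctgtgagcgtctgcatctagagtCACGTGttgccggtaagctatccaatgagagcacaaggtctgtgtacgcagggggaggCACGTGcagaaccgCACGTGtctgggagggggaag
Per3: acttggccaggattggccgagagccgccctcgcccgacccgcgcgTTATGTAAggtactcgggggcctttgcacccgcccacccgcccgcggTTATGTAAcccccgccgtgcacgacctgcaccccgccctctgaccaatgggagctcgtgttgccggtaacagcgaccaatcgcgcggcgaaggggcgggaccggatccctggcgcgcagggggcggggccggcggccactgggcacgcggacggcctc

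Ciart, a repressor of the clock, held 3 E-boxes, whose first bases lay at -116, -58 and -44 from the RefSeq start. Per3, a period gene, held 2 D-boxes, at -205 and -158. The Arntl window held neither element, nor the core TAGGTCA of the element bound by the Nr1d proteins. Both strands were searched, and for the shares the 250 bases before each of 32851 starts in the table were searched. The E-box letters stood in 6.02% of those windows, the D-box letters in 2.06% and the TAGGTCA core in 2.23%. Of the 19 clock genes examined here 17 were in the table. The E-box stood in the windows of Bhlhe41, Ciart, Cry1, Per1 and Tef (5 genes), the D-box in those of Per3 and Rorb (2 genes), and the TAGGTCA core in that of Nfil3. A gene was counted if any of its starts had the element, and some genes, such as Arntl with 2, have several starts. The shares above are per start, so the counts of genes cannot be set directly against them. The windows of the 5 genes called between transplanted and SCI cord held 0 of these elements. A letter match is a description of a window, not a site of binding.

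The 9 injured libraries held 8705942 to 24947862 counts, with 5.0% to 8.80% of them from mitochondrial genes. Markers of spinal cord were abundant in every library. Mbp, of myelin, lay between 9029 and 18572 CPM (counts scaled to a common library size) with a transplant and between 10029 and 14349 CPM with SCI alone. Snap25, of nerve terminals, lay between 1727 and 3457 CPM with a transplant and between 1737 and 2145 CPM with SCI alone. Libraries did not all sit nearest their own group. Over log2 CPM of the genes tested, syngeneic replicate 3 had correlations of 0.989 to 0.991 with the SCI libraries, against 0.977 to 0.982 with the other syngeneic libraries. Allogeneic replicate 1 had 0.984 to 0.987 with the SCI libraries, against 0.972 to 0.973 with its own group. By the numbers in their titles, the transplanted samples (191 to 210) follow all SCI samples (100 to 126), so any handling that went by number cannot be told apart from the transplant.

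Of 16527 genes tested, 5 passed an adjusted p of 0.05 between transplanted and SCI cord (0.0303% of those tested, edgeR's quasi-likelihood test with Benjamini-Hochberg adjustment, each kind of transplant weighted equally). Dbp rose (0.00605% of genes were called higher) and Arntl, Npas2, Fos and Frem2 fell (0.0242% were called lower). DESeq2 on the same contrast called 39 genes (0.236%) and limma-voom 6 (0.0363%), and both lists held all 5. At an unadjusted p below 0.05 there were 875 genes (5.29%), 346 with higher and 529 with lower values. The median log2 fold change over all genes was -0.00080. The 20 genes with the smallest p held 5 clock genes and 5 immediate early genes, and 17 of the 20 had lower values in transplanted cord. Of the 16527 genes tested, 19 were in the clock lists and 19 in the immediate early list. These lists were chosen with earlier results of these data known, so the 2 counts are no test. Leaving out single libraries moved the count of calls between 1 and 23. It was 3 without syngeneic replicate 1, allogeneic replicate 1 or allogeneic replicate 2, 23 without syngeneic replicate 3, 2 without SCI replicate 1 and 1 without SCI replicate 2 or 3.

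Of 5 clock activators, Arntl and Npas2 fell with a transplant. Arntl (chr7:113207465-113314126, plus strand, GRCm38) had 8.92, 8.66 and 10.2 CPM in the syngeneic libraries and 10.6, 9.59 and 10.7 CPM in the allogeneic libraries, against 22.8, 21.5 and 20.4 CPM in SCI libraries. All 6 transplanted libraries lay below all 3 SCI libraries, with a gap between the groups wider than the spread of either. The mean was 9.77 ± 0.857 CPM with a transplant (SD, n = 6) and 21.6 ± 1.19 CPM with SCI alone (SD, n = 3). Arntl fell by 1.14 on the log2 scale (SE 0.099, edgeR adjusted p = 0.00169). Npas2 (chr1:39193731-39363236, plus strand), which can stand in for Clock as the partner of Arntl, had 7.43, 5.23 and 8.48 CPM with syngeneic cells and 8.76, 7.11 and 7.52 CPM with allogeneic cells, against 17.7, 19.3 and 17.2 CPM with SCI alone. Its groups did not overlap either, and it fell by 1.29 on the log2 scale (SE 0.17, edgeR adjusted p = 0.0243). The call of Npas2 was lost with library totals as the only scaling (adjusted p = 0.0552) and without any single library other than syngeneic replicates 2 and 3 (adjusted p of at most 0.200). That of Arntl held in all 17 other settings. Of the 5 activators examined, these 2 were called lower, against 0.0242% of all genes. The same 2 of 5 did not overlap between the groups, against 1.59% of all genes lower without overlap. This and the other gene lists were chosen with earlier results of these data known, so such shares are no test.

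The other 3 activators did not pass the test. Clock, the main partner of Arntl, had a log2 fold change of -0.24 and groups that overlapped (64.7 to 110 CPM with a transplant, 94.2 to 110 CPM with SCI alone). Rora and Rorb, nuclear receptors that switch on Arntl, had log2 fold changes of -0.15 and -0.18. The median over the 5 activators was -0.24, and -0.36 without allogeneic replicate 1.

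Of the clock's repressors and outputs, Dbp rose with a transplant. Dbp (chr7:45705088-45710203, plus strand), an output factor that binds D-boxes, had 68.7, 79.1 and 68.2 CPM in syngeneic libraries and 62.4, 75.6 and 64.2 CPM in allogeneic libraries, against 20.6, 21.2 and 21.4 CPM in SCI libraries. All 6 transplanted libraries stood above all 3 SCI libraries. Of its 2993 exonic bases 539 overlap exons of Sphk2 on the other strand, and the sources used here do not give the strand setting of the counting. The means were 69.7 ± 6.48 CPM (SD, n = 6) and 21.1 ± 0.423 CPM (SD, n = 3), a 3.30-fold difference. Dbp rose by 1.72 on the log2 scale (SE 0.20, edgeR adjusted p = 0.0107). Without SCI replicate 1, 2 or 3 its log2 fold change was 1.71, 1.73 and 1.72, and its adjusted p of 0.124, 0.127 and 0.113 missed the threshold.

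Per2, a period gene and core repressor, had 26.6, 28.3 and 27.2 CPM with syngeneic cells and 21.9, 22.8 and 22.5 CPM with allogeneic cells, against 14.3, 16.3 and 13.7 CPM with SCI alone. Its groups did not overlap, but with a log2 fold change of 0.74 (SE 0.12) its edgeR adjusted p was 0.0948. Ciart had 8.69 to 16.7 CPM with a transplant (median 11.8), against 5.51, 5.55 and 5.56 CPM with SCI alone. The SCI libraries were almost equal and all 6 others were higher, at a log2 fold change of 1.13 and an edgeR adjusted p of 0.204. Nr1d2, a nuclear receptor that represses Arntl, had 125 to 164 CPM with a transplant (median 141), against 93.2, 94.9 and 101 CPM with SCI alone. Its log2 fold change was 0.55 and its edgeR adjusted p was 0.0953.

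Nr1d1, the paralog of Nr1d2, had 46.6 to 62.6 CPM with a transplant (median 54.3), against 36.8, 39.9 and 39.5 CPM with SCI alone. Per3 had 32.6 to 50.6 CPM with a transplant (median 45.0), against 26.7, 27.5 and 31.1 CPM with SCI alone. Tef, a D-box factor related to Dbp, had 169 to 234 CPM with a transplant (median 201), against 146, 151 and 143 CPM with SCI alone. In each of these 3 genes the groups did not overlap, at log2 fold changes of 0.48, 0.61 and 0.45, and edgeR's adjusted p was 0.262, 0.436 and 0.433. DESeq2, which called 0.236% of all genes, called all 3, and also Per2, Ciart and Nr1d2.

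Of the 14 repressors and outputs, 1 was called higher by edgeR (0.00605% of all genes). Of the 14, 7 did not overlap and lay higher (1.31% of all genes did), and 8 had an unadjusted p below 0.05 with higher values (2.09% of all genes). The eighth was Cry1, a cryptochrome of the repressor complex, at a log2 fold change of 0.22. Fold changes lay above 0 in 13 of the 14, with a median of 0.41. The exception was Nfil3, a repressor that competes with Dbp for the D-box, with 6.86 to 15.2 CPM in transplanted libraries (median 8.29) and 13.4, 15.1 and 13.7 CPM in SCI libraries, at a log2 fold change of -0.63 (edgeR adjusted p = 0.896). Per1, which is also induced by stimuli directly, had 48.3 to 92.9 CPM with a transplant and 35.7, 73.3 and 56.8 CPM with SCI alone. Its groups overlapped, at a log2 fold change of 0.25. Cry2, Hlf, Bhlhe40 and Bhlhe41 had log2 fold changes of 0.18, 0.38, 0.03 and 0.19, and that of Bhlhe40 changed sign with single libraries left out. The list of repressors and outputs was chosen with earlier results of these data known, so its counts are no test.

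**Figure D1:**
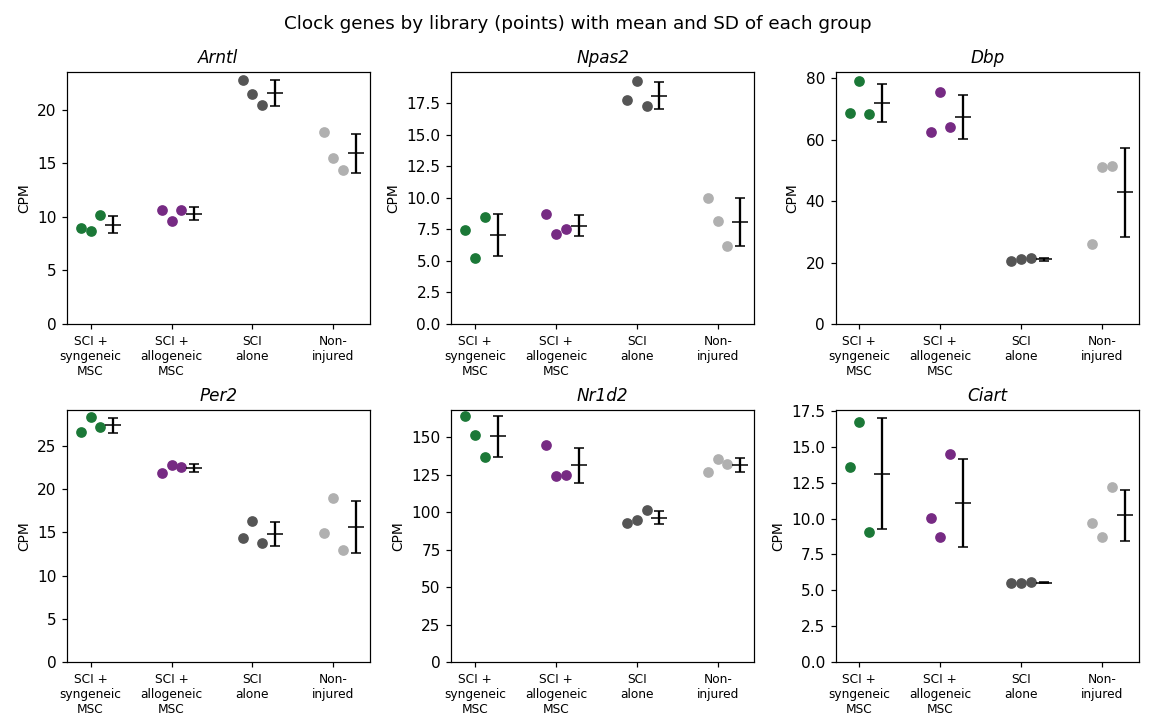
Level of clock genes in CPM for every library (points), with the mean and SD of each group of 3. Arntl and Npas2 lie lower, and Dbp, Per2, Ciart and Nr1d2 higher, in all 6 transplanted libraries than in the 3 SCI libraries.

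The called clock genes moved the same way with both kinds of transplant. Against SCI, Arntl had log2 fold changes of -1.22 with syngeneic and -1.06 with allogeneic cells, Npas2 -1.36 and -1.21, and Dbp 1.77 and 1.68. Both comparisons share the 3 SCI libraries. The difference between the kinds, which does not use the SCI libraries, was -0.16 for Arntl (95% interval -0.43 to 0.10), -0.16 for Npas2 (-0.61 to 0.30) and 0.10 for Dbp (-0.35 to 0.55). Of the 19 clock genes 0 differed between the kinds at an adjusted p of 0.05 in edgeR, where 0.611% of all genes did. DESeq2 and limma-voom also called 0, and 1 had an unadjusted edgeR p below 0.05. The share of all genes at that unadjusted threshold was not counted. A miss of the threshold does not show that the values are equal.

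Set beside non-injured cord, Arntl was lower with a transplant and higher in SCI, and Dbp the reverse. Arntl had 17.9, 15.5 and 14.4 CPM in non-injured libraries, which lay between the transplanted and the SCI level. With a transplant it fell by 0.71 on the log2 scale relative to non-injured cord (edgeR adjusted p = 0.000722), and in SCI it rose by 0.44 relative to non-injured cord (edgeR adjusted p = 0.0177). Dbp had 26.0, 51.0 and 51.4 CPM in non-injured libraries, with 1 of them near the SCI level. With a transplant it was 0.70 above non-injured cord on the log2 scale (edgeR adjusted p = 0.0207), and in SCI it was 1.02 below (log2 fold change -1.02, edgeR adjusted p = 0.00555). Per2 rose by 0.67 with a transplant relative to non-injured cord (edgeR adjusted p = 0.00244), and its log2 fold change in SCI relative to non-injured cord was -0.07. Npas2 had 9.97, 8.18 and 6.15 CPM in non-injured cord, close to its transplanted level (log2 fold change -0.13, edgeR adjusted p = 0.639). Over all genes, 19.8% were called between transplanted and non-injured cord and 25.8% between SCI and non-injured cord. These comparisons share libraries with the main one. The hour at which each cord was taken is not given, and an hour that differed between the groups cannot be told apart from the transplant.

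Of the immediate early genes, Fos fell with a transplant. Fos (chr12:85473890-85477273, plus strand), a subunit of the AP-1 transcription factor, had 35.6, 23.4 and 40.9 CPM in syngeneic libraries and 45.3, 58.0 and 34.2 CPM in allogeneic libraries, against 104, 116 and 148 CPM in SCI libraries. The highest transplanted library stood well below the lowest SCI library. Fos fell by 1.65 on the log2 scale (SE 0.18, edgeR adjusted p = 0.0107), with 39.6 ± 11.7 CPM with a transplant (SD, n = 6) and 122 ± 22.7 CPM with SCI alone (SD, n = 3). It missed the threshold without SCI replicate 2 (adjusted p = 0.0859) or SCI replicate 3 (adjusted p = 0.113). Non-injured libraries had 46.8, 42.9 and 41.5 CPM of Fos, within the transplanted range, and the log2 fold change of transplanted over non-injured cord was -0.17 (edgeR adjusted p = 0.583).

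Egr1, a zinc finger factor induced by firing and growth factors, had 33.2 to 61.6 CPM with a transplant (median 55.1), against 97.2, 108 and 112 CPM with SCI alone. Nr4a1, an orphan nuclear receptor, had 8.78 to 18.1 CPM with a transplant (median 10.1), against 23.7, 22.4 and 22.6 CPM with SCI alone. Neither gene's groups overlapped. Zfp36, whose protein speeds the decay of cytokine mRNA, had 12.8 to 29.3 CPM with a transplant (median 22.4), against 40.8, 45.9 and 49.9 CPM with SCI alone. Btg2, an antiproliferative gene, had 10.7 to 21.9 CPM with a transplant (median 17.0), against 32.6, 28.9 and 30.8 CPM with SCI alone. Log2 fold changes were -1.03 for Egr1, -0.94 for Nr4a1, -1.11 for Zfp36 and -0.87 for Btg2, and none of the 4 passed in edgeR (adjusted p of 0.0953, 0.170, 0.170 and 0.155). DESeq2 called all 4 (0.236% of all genes).

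Of 20 immediate early genes listed, 19 passed the filter on low counts, Egr4 being left out. Of the 19, 1 was called lower by edgeR (0.0242% of all genes). Of the same 19, 8 did not overlap and lay lower (1.59% of all genes did), and 10 had an unadjusted p below 0.05 with lower values (3.20% of all genes). Fold changes lay below 0 in 18, and that of Arc, a gene of active synapses, was 0.0028 and changed sign with other settings. The median was -0.59. The immediate early list was chosen with earlier results of these data known, so its counts are no test. Junb and Jun, other AP-1 subunits, had log2 fold changes of -0.71 and -0.35, Ier2 -0.77, Fosl2 -0.68 and Fosb -0.90. Npas4, which follows calcium entry into neurons, had -0.05 and overlapped widely, and Atf3, a marker of damaged neurons, had -0.41.

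**Figure D2:**
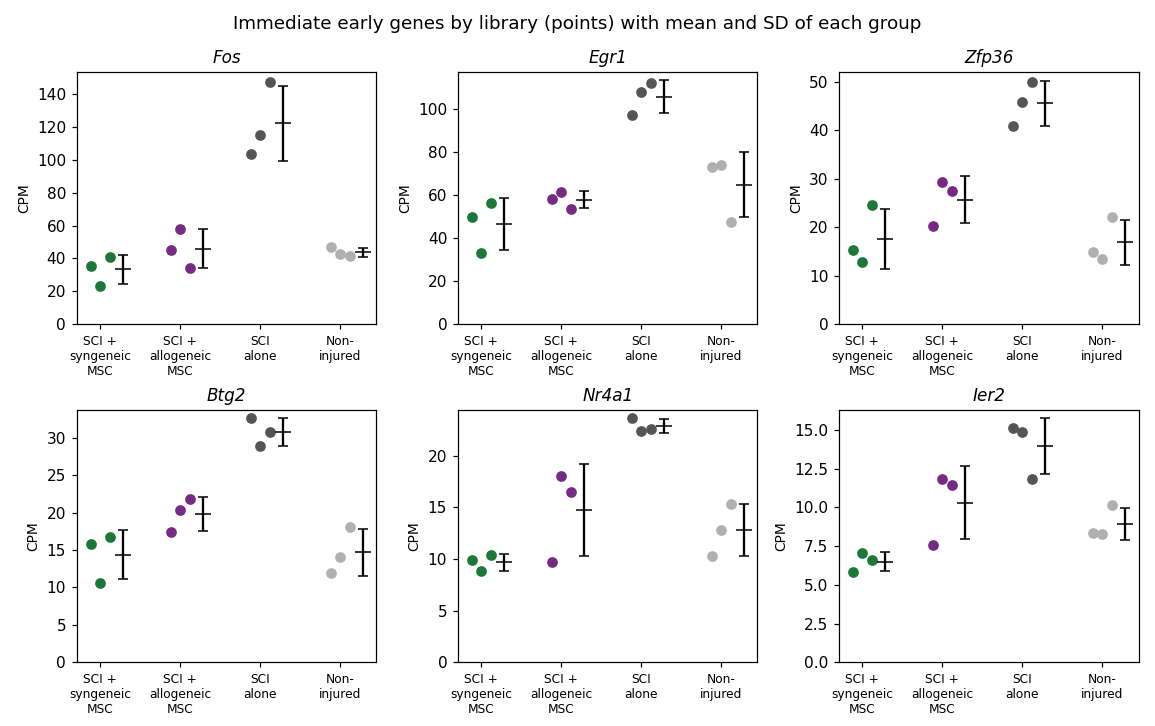
Level of immediate early genes in CPM for every library (points), with the mean and SD of each group of 3. Fos, Egr1, Nr4a1, Zfp36 and Btg2 lie lower in all 6 transplanted libraries than in the 3 SCI libraries, and the 3 non-injured libraries lie within the transplanted range for Fos.

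For Fos the log2 fold change against SCI was -1.88 with syngeneic and -1.42 with allogeneic cells, and the difference between the kinds was -0.46 (95% interval -0.95 to 0.04). The median over the 19 genes was -0.97 with syngeneic and -0.36 with allogeneic cells. Of the 19, 0 differed between the kinds at an adjusted p of 0.05 in edgeR (0.611% of all genes did), DESeq2 or limma-voom. An unadjusted edgeR p below 0.05 was found in 6 of the 19. The share of all genes at that unadjusted threshold was not counted, so the 6 have no level to be set against. In SCI relative to non-injured cord the same 19 genes had a median of 0.92, with 13 called (25.8% of all genes). Between transplanted and non-injured cord edgeR called 7 of the 19 in either direction (19.8% of all genes). The directions of these 7 were not counted. Junb, 1 of those 7 and given only as an example, kept a higher level with a transplant than in non-injured cord. It had 14.3 to 36.1 CPM with a transplant and 11.1, 11.9 and 9.43 CPM in non-injured libraries (log2 fold change 1.23, edgeR adjusted p = 0.00122).

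Frem2 (chr3:53513938-53657355, minus strand), a large protein of the extracellular matrix that anchors epithelia to basement membranes, was the fifth gene called. It had 5.59, 5.47 and 6.10 CPM with syngeneic cells and 7.52, 7.45 and 7.93 CPM with allogeneic cells, against 11.5, 13.2 and 11.8 CPM with SCI alone. The 6 transplanted libraries lay below all SCI libraries, and the 3 syngeneic ones below the 3 allogeneic ones. Frem2 fell by 0.88 on the log2 scale (SE 0.11, edgeR adjusted p = 0.0176), by 1.09 with syngeneic cells and by 0.67 with allogeneic cells. The difference between the kinds, -0.42 (95% interval -0.71 to -0.13), had an adjusted p of 0.237. Non-injured libraries had 4.75, 4.997 and 5.90 CPM. The call was lost when the 6 transplanted libraries were treated as 1 group (adjusted p = 0.168), and without any single library other than syngeneic replicate 3 and allogeneic replicate 3 (adjusted p of at most 0.200).

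Ccl2, Lif, Socs3, Il1b, Mmp11, Clec4e and S100a8 did not pass in edgeR and were chosen after their values were seen. Ccl2, the chemokine that draws monocytes, had 1.40 to 3.14 CPM with a transplant (median 2.76), against 5.21, 7.03 and 5.61 CPM with SCI alone. Lif, a cytokine of the interleukin-6 family, had 0.735 to 1.58 CPM with a transplant (median 1.09), against 2.88, 2.64 and 7.03 CPM with SCI alone. Socs3, a feedback inhibitor of that cytokine family's signal, had 4.53 to 17.5 CPM with a transplant (median 11.7), against 20.6, 25.9 and 50.6 CPM with SCI alone. In all 3 the groups did not overlap (1.59% of all genes lay lower without overlap), at log2 fold changes of -1.31, -1.92 and -1.59. Only Ccl2 was called by limma-voom (adjusted p = 0.0486), all 3 by DESeq2, and none by edgeR (adjusted p of 0.0953, 0.155 and 0.170). Limma-voom called 0.0363% of all genes and DESeq2 0.236%. In Lif and Socs3, SCI replicate 3 held the highest value by far. The 18 tested genes of the cytokine and chemokine list had a median of -0.42, with -0.84 for syngeneic and 0.07 for allogeneic cells. Of these 18, 14 had fold changes below 0 and 4 above 0.

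Il1b, an inflammatory cytokine, had 0.531 to 1.297 CPM with a transplant, against 1.59, 2.53 and 2.44 CPM with SCI alone, a log2 fold change of -1.34 (edgeR adjusted p = 0.392). Mmp11, a secreted metalloprotease, had 2.25 to 5.35 CPM with a transplant (median 4.03), against 9.80, 6.59 and 7.14 CPM with SCI alone (log2 fold change -1.09, edgeR adjusted p = 0.0907). Clec4e, a receptor of macrophages for damage and fungal glycolipids, had 0.0817 to 1.01 CPM with a transplant, against 1.23, 1.15 and 1.42 CPM with SCI alone (log2 fold change -2.14, edgeR adjusted p = 0.0948). Its 9 libraries held few counts, 7 over the syngeneic, 33 over the allogeneic and 66 over the SCI group. None of these 3 genes overlapped between the groups (1.59% of all genes lay lower without overlap). Of the neutrophil granule genes, S100a8 had 2.05 to 5.90 CPM with a transplant (median 5.08), against 7.54, 9.11 and 8.90 CPM with SCI alone, with an unadjusted edgeR p of 0.00585 and an adjusted p of 0.812.

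Further genes among the 20 smallest p, also chosen after their values were seen, were Rasa2, Adra2a, Sash1 and Spib. Rasa2, which switches off Ras, had 20.3 to 30.8 CPM with a transplant (median 24.98), against 37.1, 37.2 and 40.7 CPM with SCI alone. Adra2a, an adrenergic receptor, had 38.9 to 48.8 CPM with a transplant (median 45.7), against 69.1, 60.3 and 59.5 CPM with SCI alone. Both sets of libraries were apart, at log2 fold changes of -0.61 and -0.49 and edgeR adjusted p of 0.106 and 0.146. Sash1 had 123 to 196 CPM with a transplant and 248, 265 and 252 CPM with SCI alone (log2 fold change -0.59, edgeR adjusted p = 0.170). Spib, a transcription factor of B cells and plasmacytoid dendritic cells, had 0.0437 to 0.259 CPM with a transplant and 0.797, 0.604 and 0.964 CPM with SCI alone (log2 fold change -2.12, edgeR adjusted p = 0.139).

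**Figure D3:**
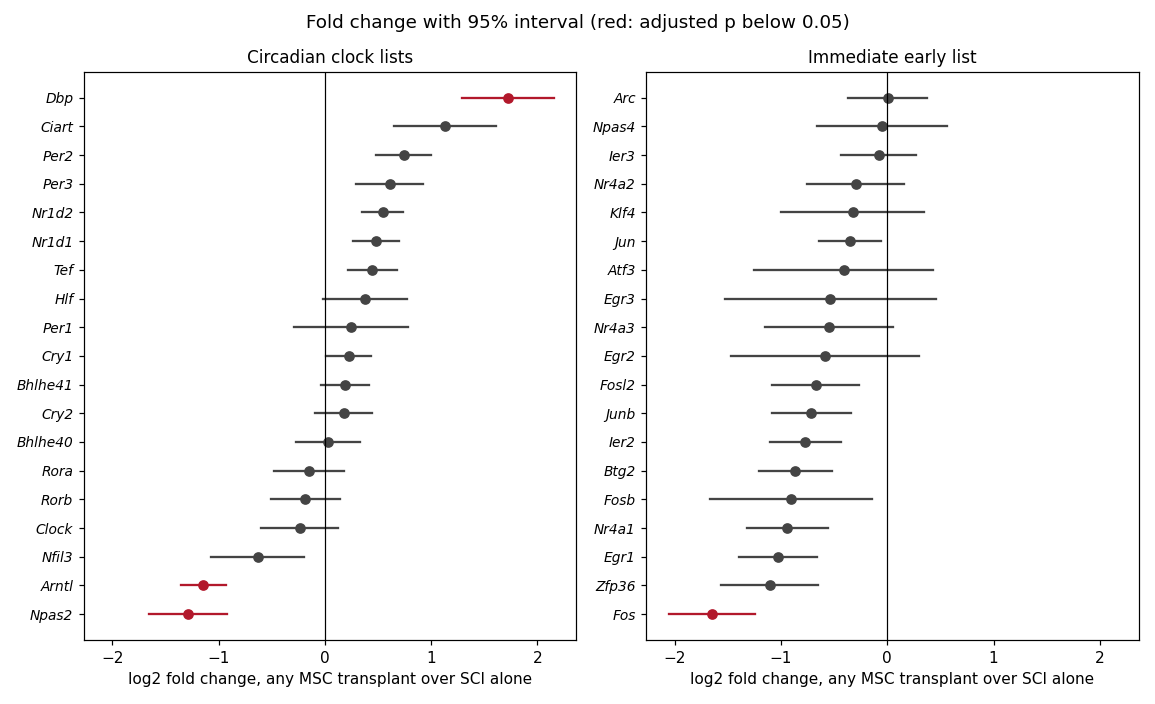
Log2 fold change of the clock genes (left) and the immediate early genes (right) in transplanted over SCI cord (points) with 95% intervals from edgeR, in red where the adjusted p was below 0.05. Arntl, Npas2 and Fos lie below 0 and Dbp above 0, and 18 of the 19 immediate early genes have their point below 0.

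Gene groups of cell types and pathways gave no further call. In the 40 lists other than clock and immediate early genes, 498 further genes were tested. EdgeR called 0 of them at an adjusted p of 0.05, where 0.0303% of all genes were called, and 66 had an unadjusted p below 0.05 (23 higher and 43 lower, where 5.29% of all genes did, 2.09% higher and 3.20% lower). DESeq2 called 8 and limma-voom 1, where 0.236% and 0.0363% of all genes were called. In 19 genes the transplanted libraries lay lower without overlap and in 1 gene higher, where 1.59% and 1.31% of all genes did. In whole tissue, fewer cells of a type and less RNA per cell cannot be told apart.

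The fibroblast, neutrophil, reactive astrocyte and microglia lists had medians below 0. By edgeR 0 of their genes differed between the kinds at an adjusted p of 0.05, where 0.611% of all genes did. At that share, 0 among so few genes does not show that the kinds were alike. The 18 fibroblast and fibrillar matrix genes all had fold changes below 0, with a median of -0.75, made up of -1.298 with syngeneic and -0.24 with allogeneic cells. Col1a1, of type I collagen, had 22.2, 31.4 and 243 CPM with syngeneic cells and 105, 350 and 282 CPM with allogeneic cells, against 394, 260 and 250 CPM with SCI alone. The transplanted libraries spread widely within each kind, and its log2 fold change of -0.95 had an edgeR adjusted p of 0.896. Without syngeneic replicate 3 that fold change was -1.90 (edgeR adjusted p = 0.175). The 11 neutrophil genes had a median of -0.88 (-1.20 and -0.55), with 6 lower at an unadjusted p below 0.05 (3.20% of all genes) and 3 lower without overlap (1.59% of all genes). The 16 reactive astrocyte genes had a median of -0.39 (-0.75 and -0.05), and of -0.64 without syngeneic replicate 3. Gfap, the intermediate filament of astrocytes, had 3737 to 8155 CPM with a transplant and 5758, 6841 and 6975 CPM with SCI alone, a log2 fold change of -0.27. The 12 microglia genes had a median of -0.15, with -0.54 for syngeneic and 0.12 for allogeneic cells, and -0.33 without syngeneic replicate 3. Aif1, of microglia and macrophages, had a log2 fold change of -0.11.

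Lists of metabolic and neuronal genes were among those with medians above 0. All 17 genes of cholesterol synthesis and uptake had fold changes above 0, with a median of 0.36 (0.62 with syngeneic and 0.07 with allogeneic cells), and 2 had an unadjusted p below 0.05 (2.09% of all genes with higher values). Mvd, of the mevalonate pathway, was the 1 member without overlap (1.31% of all genes higher), at 14.3 to 32.1 CPM with a transplant and 12.6, 11.1 and 11.5 CPM with SCI alone. Syngeneic replicate 2, which also had the highest mitochondrial share of the 9 libraries (8.80%), held the highest value in each of the 17 genes. Without that library the median of the 17 genes was 0.14. All 14 genes of oxidative phosphorylation lay above 0 with a median of 0.23 (0.34 with syngeneic and 0.14 with allogeneic cells). Of 14 neuronal genes 13 lay above 0, with a median of 0.28 (0.42 with syngeneic and 0.07 with allogeneic cells). For 17 neurotransmission genes, 7 of them below 0, the median was 0.02 (0.22 and -0.16). It spanned -0.085 to 0.13 with single libraries left out. The 12 tested MSC marker genes, which cord cells also express in part, had a median of -0.23 (-0.42 with syngeneic and -0.0072 with allogeneic cells). It was -0.35 without syngeneic replicate 3 and -0.13 without SCI replicate 1. At an unadjusted edgeR p below 0.05, 2 of the 12 lay higher (2.09% of all genes) and 3 lower (3.20% of all genes). The summed level of the list, its untested member included, was 866 to 924 CPM with syngeneic cells and 850 to 990 CPM with allogeneic cells. It was 802 to 981 CPM with SCI alone and 914 to 1030 CPM in non-injured cord. Such a sum follows the most abundant members, and 1 member, Thy1, is also in the neuron list. The sum therefore says little about MSC. By median, the tested genes had a log2 fold change of 0.60 in SCI relative to non-injured cord.

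Lists of stress and hormone response were examined because such signals are known to act on clock and immediate early genes. The 13 glucocorticoid-responsive genes had a median of 0.34, with 10 above 0. At an unadjusted edgeR p below 0.05, 1 lay higher (2.09% of all genes) and 1 lower (3.20% of all genes). The median was 0.12 without SCI replicate 1, 0.13 without allogeneic replicate 3 and 0.18 without syngeneic replicate 3. Tsc22d3, which glucocorticoids induce, had 112 to 222 CPM with a transplant (median 169) and 121, 110 and 117 CPM with SCI alone. Dusp1, a phosphatase that both glucocorticoids and immediate early signals induce, had 20.6 to 27.5 CPM with a transplant (median 24.9) and 39.2, 33.7 and 40.1 CPM with SCI alone. Its groups did not overlap (1.59% of all genes lay lower without overlap), at a log2 fold change of -0.64 (edgeR adjusted p = 0.392). Medians were -0.02 for 13 heat shock chaperones and 0.0046 for 14 hypoxia genes, near the median of all genes. The part of glucocorticoids in the clock values was not tested.

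**Figure D4:**
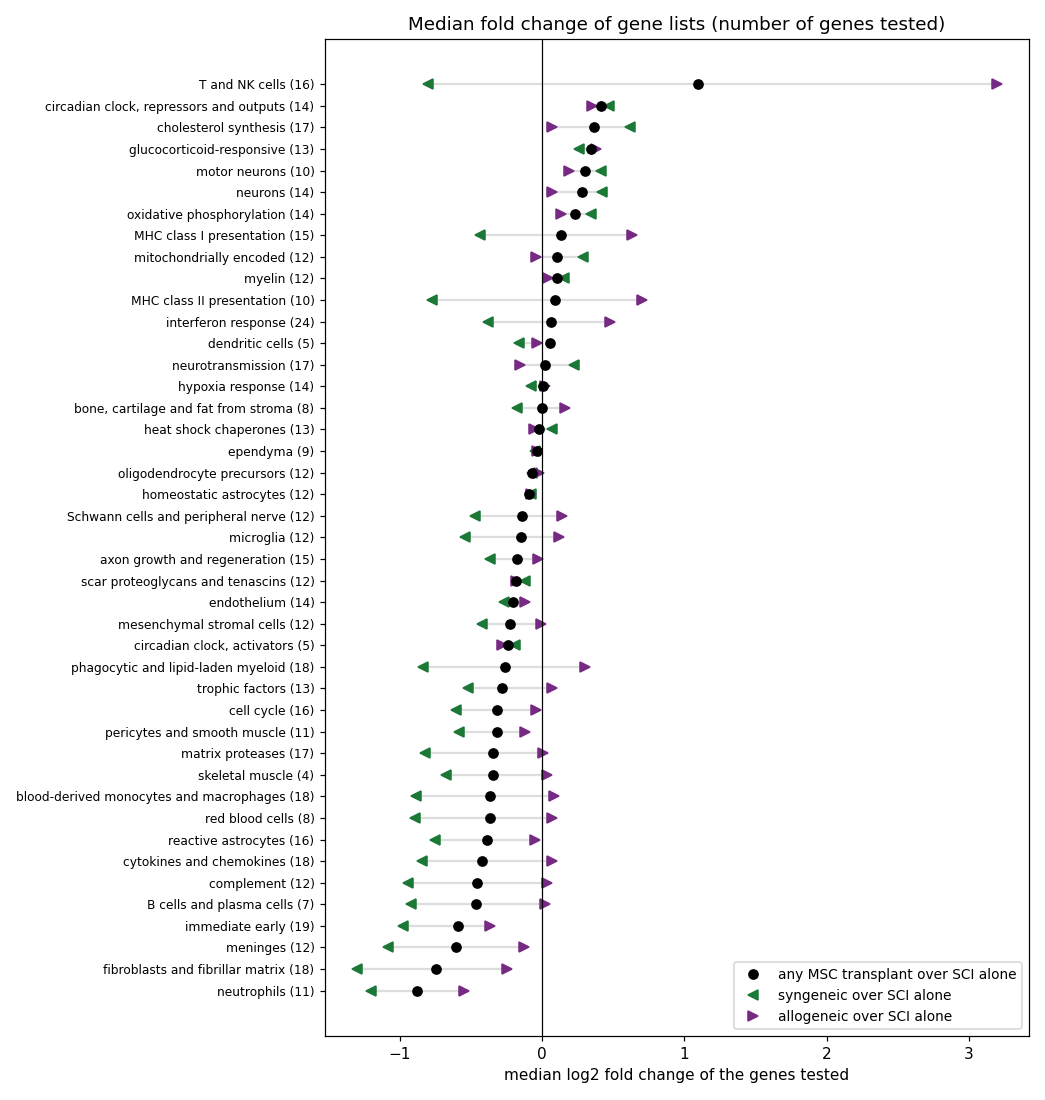
Median log2 fold change of each gene list against SCI for any transplant, for syngeneic cells and for allogeneic cells, on 1 axis. Clock repressors lie above 0 and immediate early genes below 0 for both kinds, while T and natural killer cell genes lie below 0 for syngeneic and above 0 for allogeneic cells.

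The average over both kinds hid opposite values in lymphocyte genes. The 16 tested genes of T and natural killer (NK) cells had a pooled median of 1.09, made up of -0.80 with syngeneic and 3.19 with allogeneic cells. With the 6 transplanted libraries as 1 group the pooled median was 2.24. In 13 of the 16 the kinds differed at an adjusted p of 0.05 (0.611% of all genes did, 0.593% being lower with syngeneic cells). The summed level of the list, its untested members included, was 6.86 to 10.3 CPM with syngeneic cells and 69.5 to 147 CPM with allogeneic cells. With SCI alone it was 12.2 to 14.1 CPM. Cd8a, the coreceptor of cytotoxic T cells, had 0.568, 0.245 and 0.707 CPM with syngeneic cells and 13.9, 25.7 and 13.01 CPM with allogeneic cells, against 0.674, 0.714 and 0.567 CPM with SCI alone. Its pooled log2 fold change of 2.16 (edgeR adjusted p = 0.204) averaged a value of 4.72 with allogeneic and -0.41 with syngeneic cells, and the kinds differed by -5.14 (edgeR adjusted p = 0.000918). With the 6 libraries as 1 group its pooled value was 3.74. Cd3e, of the T cell receptor complex, showed the same split, at 0.245 to 0.321 CPM with syngeneic cells and 3.87 to 8.35 CPM with allogeneic cells, against 0.490 to 0.659 CPM with SCI alone. The 15 genes of antigen presentation by class I of the major histocompatibility complex (MHC) had a pooled median of 0.13, with -0.44 for syngeneic and 0.63 for allogeneic cells. In 6 of them the kinds differed, and the pooled median was 0.012 without syngeneic replicate 3 and 0.25 without SCI replicate 2. Of the 5 genes called for any transplant, 0 differed between the kinds at an adjusted p of 0.05 in edgeR, DESeq2 or limma-voom. In edgeR 1 of them, Frem2, had an unadjusted p below 0.05 for that difference.

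**Figure D5:**
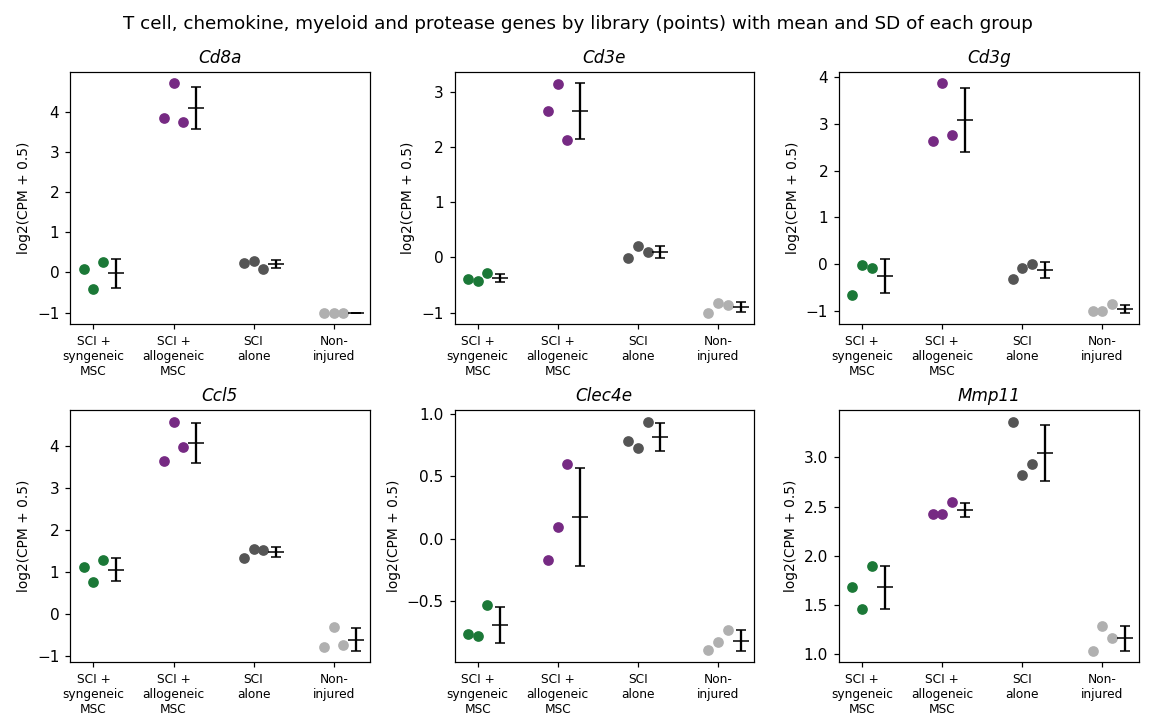
Level on a log2(CPM + 0.5) scale of T cell, chemokine, myeloid and protease genes chosen after their values were seen, by library (points) with the mean and SD of each group. The T cell genes and Ccl5 stand high in the 3 allogeneic libraries only, with the 3 syngeneic libraries near or below SCI, while Clec4e and Mmp11 lie lower in both kinds than in SCI.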

How the data were processed

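Bulk RNA-seq of 12 mouse spinal cord libraries was analysed. Per the labels' protocols, RNA was column-purified, treated with DNase, poly(A)-selected and made into stranded libraries. The deposited values are raw read counts of 46078 Ensembl genes, made by the authors. The submitters' processing notes name build GRCm38, featureCounts 1.5.1, STAR 2.5.1, Trim Galore 0.4.1, FastQC 0.11.5, Picard and StringTie 1.3.3. The sources used here do not give the strand setting or the treatment of multi-mapping reads. Of the 58 named genes, 14 share exonic bases with a gene on the other strand, so their values are uncertain (Arntl, Bhlhe40, Bhlhe41, Cd3e, Cry2, Dbp, Jun, Junb, Mmp11, Nr1d1, Rora, Sash1, Tef and Zfp36), by GENCODE coordinates on GRCm38.

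After edgeR's filterByExpr, with a minimum count of 10 and a minimum total of 15, 16527 genes remained. The test was edgeR 4.0.16 in R 4.3.3 (robust glmQLFit and glmQLFTest, TMM factors, 1 mean per group over all 12 libraries, 8 residual degrees of freedom), on the mean of the syngeneic and allogeneic coefficients minus that of SCI. P-values were adjusted by Benjamini-Hochberg over all genes tested, with a threshold of 0.05. CPM use TMM-scaled totals of the deposited counts, and log2 CPM for correlations a prior count of 2. The scripts were tested on simulated data. Alternatives were DESeq2 1.42.0, limma-voom 3.58.1, other scaling and filters, 1 transplanted group, 9 libraries, and leaving out each library. The labels give no replicate numbers, so replicates were numbered in accession order.

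Genes named by rule are all called genes, the tested members of the clock and immediate early lists, and Gfap, Aif1, Mbp, Snap25, Cd3e, Arg1 and Col1a1. The 58 named genes also include Ccl2, Lif, Socs3, Mmp11, Clec4e, Rasa2, Adra2a, Sash1, Spib, Cd8a, Cd3g and Ccl5, which were chosen after their values were seen, as were the examples Il1b, S100a8, Mvd, Tsc22d3, Dusp1 and Cldn5. The comparison, the rule and the 43 gene lists were chosen with earlier results of these data known. Lists got no test, and 1 further clock gene is not reported here. Il1b and Dusp1 share some exonic bases with an opposite-strand gene. Intervals at 95% come from the edgeR fit.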

Additional observations from a re-analysis of the deposited data

Results flagged for a closer look

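In 4 of the 58 named genes 1 of the 6 transplanted libraries stood apart from the other 5, by the ratio of its gap to the range; chance gives about 1 such gene in 20. They were Arg1 in allogeneic replicate 3 (0.784 CPM, the highest, with 0.113 to 0.259 CPM in the others), Ier3 in allogeneic replicate 3 (19.7 CPM, the highest), Bhlhe40 in syngeneic replicate 2 (65.3 CPM, the lowest) and Egr1 in syngeneic replicate 2 (33.2 CPM, the lowest). All 4 values are of single libraries, and Arg1 held few counts, 13 over the syngeneic, 22 over the allogeneic and 36 over the SCI group.

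In 5 named genes the effect relative to SCI differed between the kinds of transplant by edgeR's test of syngeneic minus allogeneic. The log2 differences were -4.41 for Cd3e, -5.14 for Cd8a, -4.58 for Cd3g, -3.40 for Ccl5 and -2.54 for Clec4e. All but Cd3e were chosen after their values were seen. Each was lower in all 3 syngeneic than in all 3 allogeneic libraries, and the pooled value of these genes averages unlike groups.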

How the results depend on the processing

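Arntl was called in all 17 other settings, with log2 fold changes from -1.20 to -1.10. Dbp was called in 14 (1.68 to 1.75), Fos in 15 (-1.76 to -1.51), and Frem2 and Npas2 in 9 each. The call count was 5 with 1 gene higher and 4 lower, and 0 of the 5 differed between the kinds. DESeq2 called 39 (11 higher, 28 lower), of which 5 differed between the kinds. Without a filter beyond a count above 0 there were 15 (3 higher, 12 lower), of which 2 differed between the kinds. With only the 9 libraries 2 genes were called higher, Per2 being added. Leaving out each library gave 1 to 23 calls (0 to 3 higher, 1 to 20 lower), with 0 to 11 differing between the kinds. The highest counts of all 4 came without syngeneic replicate 3. The cause of these shifts was not tested. Where an SCI library was left out, 2 remained in that group.

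Among named genes the sign changed only in 5 with values near 0. Medians of lists near 0 could change sign too, that of MHC class II presentation spanning -0.24 to 0.22. Arc had a log2 fold change of -0.038 with limma-voom, -0.0083 with library totals as the only scaling and -0.00077 with only the 9 libraries. Over left-out libraries it spanned -0.083 to 0.12 for Arc, -0.026 to 0.13 for Bhlhe40, -0.15 to 0.14 for Mbp, -0.22 to 0.040 for Npas4 and -0.23 to 0.0090 for Ier3. Medians of 2 lists moved beyond the spread without SCI replicate 2, to 0.49 for clock repressors and outputs and to -0.95 for skeletal muscle. With library totals of 8705942 to 24947862 counts, genes such as Clec4e, Spib and Arg1 rest on few counts. No paired analysis was possible because the labels give no replicate numbers that the groups share.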

Other observations

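For 18 blood-derived monocyte and macrophage genes the median was -0.36, with -0.88 for syngeneic and 0.08 for allogeneic cells. EdgeR called 0 of them (0.0303% of all genes), DESeq2 1 (0.236%) and limma-voom 0 (0.0363%). At an unadjusted edgeR p below 0.05, 4 had lower values (3.20% of all genes), and 1 lay lower without overlap (1.59% of all genes). By edgeR the kinds differed at an adjusted p of 0.05 in 2 of these 18 genes (0.611% of all genes). For 18 phagocytic and lipid-laden myeloid genes the median was -0.26, with -0.84 for syngeneic and 0.30 for allogeneic cells. For 12 complement genes it was -0.46 (-0.94 and 0.03), for 10 genes of MHC class II presentation 0.09 (-0.77 and 0.70), and for 24 interferon response genes 0.07 (-0.38 and 0.48). In these last 4 lists edgeR, DESeq2 and limma-voom called 0 genes for any transplant, and 0 had an unadjusted edgeR p below 0.05. By edgeR the kinds differed in 1 of the 10 MHC class II genes and 1 of the 24 interferon genes (0.611% of all genes). Without syngeneic replicate 3 the medians were -0.78 for monocytes and macrophages, -0.64 for phagocytic myeloid genes, -0.91 for complement and -0.24 for MHC class II, and the interferon median was -0.06 without SCI replicate 3.

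Of 14 endothelial genes, 11 had fold changes below 0, with a median of -0.20 (-0.27 for syngeneic and -0.12 for allogeneic cells). EdgeR, DESeq2 and limma-voom called 0 of them (0.0303%, 0.236% and 0.0363% of all genes). An unadjusted edgeR p below 0.05 with lower values was found in 3 (3.20% of all genes). Cldn5, a tight junction protein of the blood-brain barrier, had 21.9 to 41.9 CPM with a transplant (median 32.9), against 66.5, 47.4 and 43.2 CPM with SCI alone and 42.8, 42.7 and 66.2 CPM in non-injured cord. It was chosen after its values were seen. Its log2 fold change against SCI was -0.69 (edgeR adjusted p = 0.652), and against non-injured cord it fell by 0.65 on the log2 scale (edgeR adjusted p = 0.0308).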
